A study of Mus musculus with 10 samples.

Results

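Chemokines are small secreted or membrane-tethered proteins that attract leukocytes and other cells through receptors coupled to G proteins. The family is divided by the spacing of the first cysteines of the mature protein into CC, CXC and CX3C chemokines, and a CXC chemokine with the residues Glu-Leu-Arg before the first cysteine attracts neutrophils in particular. Some chemokine genes are induced by NF-κB or interferon signaling, while others, such as Cxcl12, are expressed in many tissues without inflammation. Described here are 10 chemokine genes, chosen by symbol out of the 50763 genes of the count table, which are Ccl2, Ccl7, Ccl5, Cxcl1, Cxcl5, Cxcl10, Cxcl12, Cxcl14, Cxcl16 and Cx3cl1.

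The libraries came from lens epithelia of FVB/N mice at 3 weeks of age, and comprised 3 wild-type (WT), 3 OVE853 and 4 OVE918 libraries. Both transgenic lines carry human TGF-β1 in a constitutively active, secreted form under a lens-specific αA-crystallin promoter and develop an anterior subcapsular plaque, and the comparison asks which chemokine transcripts differ in such an epithelium. Each library is a pool of explants of up to 9 mice (WT and OVE853) or up to 7 mice (OVE918), so that the spread between libraries is a spread between pools. The complete epithelium was sampled and not the plaque alone, and in such bulk RNA fewer cells of a type and less RNA per cell cannot be told apart.

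The libraries held 24073311 to 31908525 counts on genes, so that 1 count stood for 0.0302 to 0.0461 CPM on the scale of edgeR's TMM factors. Levels are given in this unit, which relates a count to the size of its library, and the levels of different genes are ranked per exon length, in FPKM. By the authors' account, the Tgfb1 values also include reads of the human transgene that mapped to the mouse gene. The Tgfb1 row stood at 50.6, 61.7 and 50.7 CPM in WT and at 361, 339 and 349 CPM in OVE853. In OVE918 it stood at 881, 715, 717 and 788 CPM, and the groups did not overlap. The lens epithelium marker Cryaa, the αA-crystallin gene, was at 114490 to 118700 CPM in WT, 76869 to 88411 CPM in OVE853 and 98435 to 151320 CPM in OVE918. Of 8 lens epithelium markers, 1 was called, the gap junction gene Gja1, which was reduced in both lines, from 512 to 572 CPM in WT to 98.0 to 127 CPM in OVE853 and 55.6 to 79.9 CPM in OVE918. WT replicate 3 stood apart, with 908 CPM summed over 8 retinal neuron markers where the other 9 libraries had 24.4 to 146, and chemokine results that rest on it are given with and without it. Markers of other tissue also differed between the groups, since 7 ciliary epithelium markers summed to 252 to 383 CPM in WT, 96.6 to 114 CPM in OVE853 and 37.4 to 64.6 CPM in OVE918, with 5 called reduced in OVE853, where 1.91% of all tested genes were, and 7 in OVE918, where 3.01% were. Of 2 cornea markers tested, Aldh3a1 was called reduced in both lines, from 236 to 1612 CPM in WT to 62.6 to 92.4 CPM in OVE853 and 26.3 to 80.5 CPM in OVE918. The other, Clu, was not called and had a log2 fold change above 0 in both lines, with an unadjusted p under 0.05 (edgeR). All 7 cornea markers summed to 7420 to 9605 CPM in WT, 12504 to 13288 CPM in OVE853 and 11704 to 13524 CPM in OVE918. Clu held most of this sum, with 2926429 counts over all libraries, against 87306 for Aldh3a1 and at most 816 for each other marker. Of 4 cornea markers tested among the filterByExpr genes, Krt12 and Aldh3a1 were called reduced in OVE853. In OVE918 Krt12, Krt15 and Aldh3a1 were. Krt12 exceeded 3 counts in 3 libraries only. The share of all filterByExpr genes called reduced is not reported here. Among the filterByExpr genes, 1 of 7 endothelium markers was called elevated in OVE853, beside 3.17% of all tested genes, and 4 in OVE918, beside 3.45%, while Kdr, a receptor of vascular endothelial growth factor, stood at 15.2 to 113 CPM in WT and 5.36 to 14.1 CPM in the transgenic libraries and did not pass the test. The part of these tissues in the chemokine values was not tested.

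The family names can be read in the coding sequence. The codons around the first cysteines of each mature protein are shown because they set the class of each gene and mark Cxcl1 and Cxcl5 as the Glu-Leu-Arg chemokines among the 10. Sequences are from the GRCm39 reference with the GENCODE vM39 annotation, 5′ to 3′ on the coding strand, with the cysteine codons in capitals.
Ccl2 (CC, exon 2, chr11:81927320-81927349, + strand): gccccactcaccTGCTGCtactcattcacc
Ccl7 (CC, exon 2, chr11:81937352-81937381, + strand): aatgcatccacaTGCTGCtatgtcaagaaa
Ccl5 (CC, exon 2, chr11:83420056-83420085, - strand): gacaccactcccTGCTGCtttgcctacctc
Cxcl1 (CXC, exon 2, chr5:91039343-91039375, + strand): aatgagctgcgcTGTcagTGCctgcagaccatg
Cxcl5 (CXC, exon 2, chr5:90907574-90907606, + strand): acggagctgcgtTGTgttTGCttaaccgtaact
Cxcl10 (CXC, exon 2, chr5:92496028-92496060, - strand): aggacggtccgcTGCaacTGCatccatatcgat
Cxcl12 (CXC, exon 2, chr6:117148457-117148489, + strand): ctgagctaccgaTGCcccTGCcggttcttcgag
Cxcl14 (CXC, exon 1, chr13:56443923-56443926, and exon 2, chr13:56443716-56443744, - strand): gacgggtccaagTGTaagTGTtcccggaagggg
Cxcl16 (CXC, exon 2, chr11:70349941-70349973, - strand): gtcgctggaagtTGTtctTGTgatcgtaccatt
Cx3cl1 (CX3C, exon 2, chr8:95504667-95504705, + strand): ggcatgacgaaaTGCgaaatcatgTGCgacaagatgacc
In the CC genes the pair of cysteine codons is adjacent, in the CXC genes 1 codon lies between them, and in Cx3cl1 3 codons do. The codons gagctgcgc of Cxcl1 and gagctgcgt of Cxcl5 before the first capital encode Glu-Leu-Arg.

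Ccl2 and Ccl7 were elevated in both transgenic lines, Cxcl5 was elevated in both lines at low counts, Cxcl14 passed the test in OVE918 and Cxcl12 in OVE853. Cx3cl1 differed from WT by less than 2-fold, Cxcl1 and Cxcl16 did not pass the test, and Ccl5 and Cxcl10 were at or near the counting floor of 3 counts. A gene was called where edgeR's quasi-likelihood test gave a Benjamini-Hochberg FDR of 0.05 or less and the log2 fold change was 1 or more in size, over 11094 genes that reached 2 FPKM in 5 or more libraries. Only Ccl2, Ccl7, Cxcl14 and Cx3cl1 passed this filter, and Cxcl1, Cxcl5, Cxcl12 and Cxcl16 were tested among the 18058 genes that passed edgeR's filterByExpr, which sets a minimum count. Ccl7 reached the FPKM minimum in no WT library, and Cxcl5 exceeded 3 counts in 1 WT library only. Both passed their filters through the transgenic libraries, so that their calls and a count over the tested genes are descriptions only. Of the 4 genes tested with the FPKM filter, 2 were called elevated in OVE853, where 2.51% of all tested genes were, and 3 in OVE918, where 2.58% were. Among the filterByExpr genes, 4 of 8 were called elevated in each line, beside 3.17% of all tested genes in OVE853 and 3.45% in OVE918. Between the lines 0 of the 4 and 0 of the 8 were called by edgeR, DESeq2 or limma-voom, beside 0.487% of all genes tested with the FPKM filter and 0.244% of the filterByExpr genes by edgeR, and at an unadjusted p under 0.05 there was 1, Cxcl12. Ccl2, Ccl7 and Cxcl14 were higher in every OVE853 library than in any WT library, as were 23.4% of the genes tested with the FPKM filter, and the same 3 and Cx3cl1 were so in OVE918, as were 12.3%. Cxcl5 and Cxcl12 were so in OVE853 beside 21.0% of the filterByExpr genes, and Cxcl5 in OVE918 beside 11.3%.

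**Figure D1:**
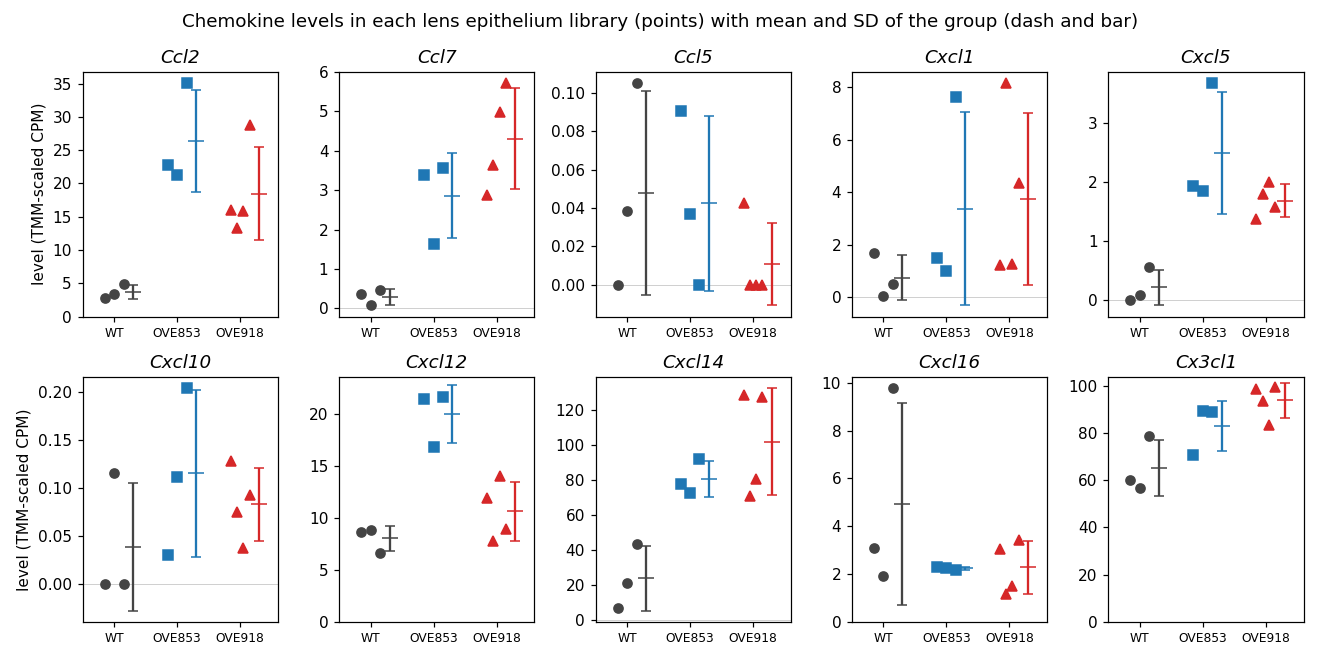
Level of each of the 10 chemokine genes in every library, in TMM-scaled CPM on a linear axis of its own for each gene, with points for the libraries of WT (circles), OVE853 (squares) and OVE918 (triangles) and a dash and bar for the mean and SD of the group. Ccl2, Ccl7, Cxcl5 and Cxcl14 lie higher in every transgenic library than in any WT library, while Cxcl1 spreads widely within each line and Ccl5 and Cxcl10 stay under 0.21 CPM.

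Ccl2, the main attractant of monocytes through the receptor Ccr2, stood at 2.86, 3.39 and 4.91 CPM in WT, at 22.7, 21.3 and 35.1 CPM in OVE853, and at 16.0, 13.3, 15.8 and 28.7 CPM in OVE918. The transgenic libraries were all above those of WT, with OVE853 replicate 3 and OVE918 replicate 4 the highest of their groups. In OVE853 Ccl2 was elevated 7.05-fold, a log2 fold change of 2.82 (standard error 0.33, FDR = 4.25e-04, edgeR). In OVE918 it was elevated 4.92-fold, a log2 fold change of 2.30 (standard error 0.32, FDR = 6.80e-04, edgeR). Between the lines the log2 difference, OVE918 minus OVE853, was -0.52 with a 95% interval from -1.14 to 0.10 (FDR = 0.290, edgeR).

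Ccl7, a monocyte attractant that also acts through Ccr2, stood at 0.358, 0.0769 and 0.456 CPM in WT, at 3.38, 1.63 and 3.57 CPM in OVE853, and at 2.87, 3.65, 4.98 and 5.72 CPM in OVE918. The groups did not overlap with WT, where the counts were 8, 2 and 13. Ccl7 passed the FPKM filter through transgenic libraries alone, so that its calls are a description. Ccl7 was elevated 9.50-fold in OVE853 (log2 3.25, standard error 0.51, FDR = 0.00207, edgeR) and 14.2-fold in OVE918 (log2 3.83, standard error 0.49, FDR = 3.37e-04, edgeR). OVE918 exceeded OVE853 by 0.58 on the log2 scale (95% interval -0.22 to 1.38, FDR = 0.347, edgeR), so that a difference between the lines was not detectable.

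Ccl2 and Ccl7 are neighbours on chromosome 11, on the same strand, with 8252 bases between them on GRCm39. They open a run of 6 ligand genes over 270120 bases, followed by Ccl11, Ccl12, Ccl8 and Ccl1. Ccl11 and Ccl8 reached at most 6 and 4 counts in any library, Ccl12 at most 9, and Ccl1 had 0 counts in all 10. The 2 genes at the start of the run thus carried nearly all of its counts. The ratio of Ccl2 to Ccl7 counts was 8.00, 44.0 and 10.8 in WT, 6.72, 13.0 and 9.83 in OVE853, and 5.57, 3.65, 3.17 and 5.02 in OVE918. All 4 OVE918 ratios lay under all others, and the WT ratio of 44.0 rests on 2 counts of Ccl7. This ratio was singled out after its values were seen and was not tested.

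Ccl5, an attractant of T cells and monocytes, had 0, 1 and 3 counts in WT, 3, 1 and 0 in OVE853, and 1, 0, 0 and 0 in OVE918. No library exceeded 3 counts, so that no difference was detectable at this depth. A library without a count allows a level of up to 0.138 CPM, the highest floor among the 10 libraries for 3 counts, which covers counting error only.

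**Figure D2:**
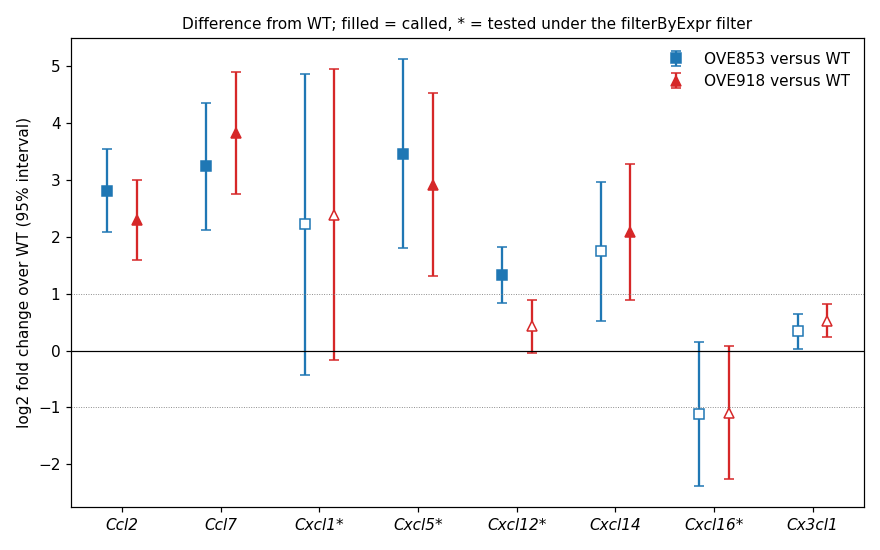
Log2 fold change over WT (vertical axis) with its 95% interval for the 8 tested chemokine genes, with squares for OVE853, triangles for OVE918, filled marks for called genes and asterisks for genes tested among the filterByExpr genes. Ccl2, Ccl7 and Cxcl5 are filled in both lines, Cxcl12 in OVE853 and Cxcl14 in OVE918, and the intervals of Cxcl1 and Cxcl16 include 0.

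Cxcl5, a Glu-Leu-Arg chemokine that acts on neutrophils through Cxcr2, had 0, 2 and 16 counts in WT, 64, 50 and 108 in OVE853, and 32, 48, 54 and 34 in OVE918. The transgenic libraries were all above WT in CPM as well, with 1.85 to 3.68 in OVE853 and 1.37 to 2.01 in OVE918 against at most 0.561 in WT. Among the filterByExpr genes the log2 fold change was 3.47 in OVE853 (standard error 0.75, FDR = 0.0154, edgeR) and 2.92 in OVE918 (standard error 0.73, FDR = 0.0200, edgeR). Cxcl5 passed the count filter through the transgenic libraries, so that these calls are a description. WT replicate 3 held nearly all of the WT counts, and without it the log2 fold changes were 5.73 and 5.21. The call in OVE853 was lost without OVE853 replicate 3 (FDR = 0.0626, edgeR), and that in OVE918 without WT replicate 2 (FDR = 0.0578, edgeR) or without OVE918 replicate 3 (FDR = 0.0519, edgeR).

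Cxcl1, the other Glu-Leu-Arg chemokine of the set, stood at 1.70, 0.0385 and 0.491 CPM in WT, at 1.51, 1.00 and 7.63 CPM in OVE853, and at 1.24, 8.16, 1.26 and 4.34 CPM in OVE918. Single libraries of each line were high, and the groups overlapped because WT replicate 1 exceeded 4 of the 7 transgenic libraries. The log2 fold change among the filterByExpr genes was 2.22 in OVE853 (standard error 1.18, FDR = 0.219, edgeR) and 2.39 in OVE918 (standard error 1.14, FDR = 0.181, edgeR). Without OVE853 replicate 3 the value in OVE853 was 0.76, and without WT replicate 1 it was 3.65. In OVE918 it was 1.66 without OVE918 replicate 2 and 3.82 without WT replicate 1. Cxcl1 and Cxcl5 lie in the same run of 7 ligand genes on chromosome 5, which spans 146612 bases of GRCm39 and also holds Cxcl2, 10755 bases from Cxcl1. Cxcl2, another neutrophil attractant, had 4, 0 and 7 counts in WT, 17, 15 and 10 in OVE853, and 6, 31, 3 and 14 in OVE918, and its highest library, OVE918 replicate 2, was also the highest of Cxcl1.

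The spread of Cxcl1 within groups went with that of Zfp36, which encodes tristetraprolin, a protein that binds AU-rich elements of mRNAs and promotes their decay. This gene was singled out after its values were seen. Zfp36 stood at 99.1, 7.39 and 50.6 CPM in WT, at 40.1, 19.3 and 119 CPM in OVE853, and at 16.3, 202, 24.5 and 87.2 CPM in OVE918. OVE918 replicate 2 and OVE853 replicate 3 were the highest pair of libraries for both genes, and WT replicate 2 was the lowest for both. In the canonical GENCODE transcripts, the heptamer TATTTAT, a core of AU-rich elements, occurred 6 times in the 3′ UTR of Cxcl1 and 7 times in that of Cxcl2, against 1 time each in Cxcl5, Cxcl12, Cxcl14 and Cx3cl1 and 0 times in Ccl2, Ccl7, Ccl5, Cxcl10 and Cxcl16. Of 20701 coding transcripts with a 3′ UTR, 29.5% held at least 1 such heptamer and 11.3% at least 2. Only the transcript strand was searched. The part of Zfp36 in the Cxcl1 values was not tested.

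**Figure D3:**
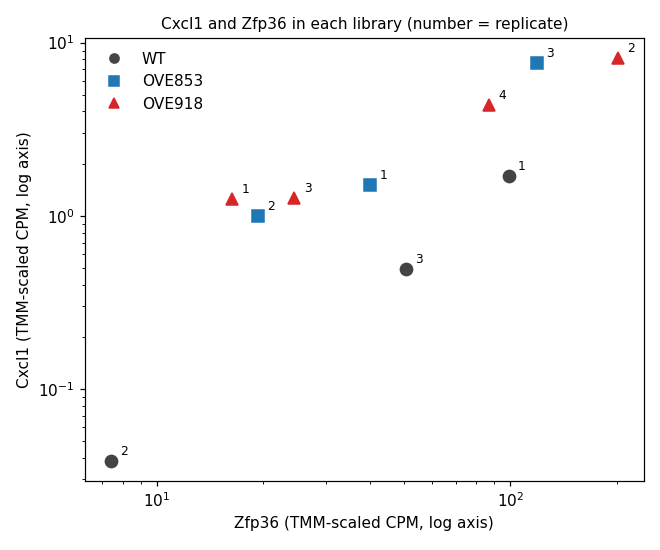
Cxcl1 (vertical axis) against Zfp36 (horizontal axis) in each of the 10 libraries, both in TMM-scaled CPM on log axes, with circles for WT, squares for OVE853, triangles for OVE918 and the replicate number beside each mark. OVE918 replicate 2 and OVE853 replicate 3 are highest on both axes and WT replicate 2 is lowest on both.

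Cxcl10, an attractant of activated T cells that interferon induces, had 0, 3 and 0 counts in WT, 1, 3 and 6 in OVE853, and 3, 2, 1 and 2 in OVE918. Only OVE853 replicate 3 exceeded 3 counts, and a difference was not detectable at this depth. The promoters of Cxcl1 and Cxcl10 are shown because both hold NF-κB motif matches, while Cxcl1 reached 8.51 FPKM and Cxcl10 0.134 FPKM in their highest libraries. They are from RefSeq on GRCm38.p6, 170 bases before the start site, 5′ to 3′ on the strand of the gene, with matches of the NF-κB motif and of the AP-1 motif TGANTCA on either strand in capitals. Overlapping matches are merged.
Cxcl1 (chr5:90891075-90891244, + strand): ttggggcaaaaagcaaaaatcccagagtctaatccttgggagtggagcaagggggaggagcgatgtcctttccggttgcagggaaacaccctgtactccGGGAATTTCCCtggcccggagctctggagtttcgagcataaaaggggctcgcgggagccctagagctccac
Cxcl10 (chr5:92348890-92349059, - strand): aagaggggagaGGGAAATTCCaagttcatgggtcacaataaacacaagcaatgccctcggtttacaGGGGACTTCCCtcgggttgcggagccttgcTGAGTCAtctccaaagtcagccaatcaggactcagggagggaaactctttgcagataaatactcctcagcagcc
In the Cxcl1 promoter the match ran from 71 to 61 bases before the start. In that of Cxcl10 there were NF-κB matches from 159 to 150 and from 104 to 94 bases, and an AP-1 match, TGAGTCA, from 74 to 68 bases. The promoter table held 5 of the 10 genes, Cxcl1, Cxcl10, Cxcl12, Cxcl14 and Cx3cl1, and the other 5 are Ccl2, Ccl7, Ccl5, Cxcl5 and Cxcl16. Within 250 bases before the start, an NF-κB match was found in 2 of these 5 and in 7.25% of 32851 promoters, and an AP-1 match in 1 of 5 and in 6.75%.

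Cxcl12, which acts through Cxcr4 and is taken up by Ackr3, stood at 8.63, 8.85 and 6.63 CPM in WT, at 21.5, 16.8 and 21.7 CPM in OVE853, and at 11.9, 7.75, 14.0 and 8.90 CPM in OVE918. All OVE853 libraries lay above all libraries of WT and of OVE918, whereas OVE918 overlapped with WT. Among the filterByExpr genes Cxcl12 was elevated in OVE853, with a log2 fold change of 1.32 (standard error 0.22, FDR = 0.00428, edgeR), a fold change of 2.50. In OVE918 the log2 fold change was 0.43 (standard error 0.21, FDR = 0.188, edgeR). The direct difference, OVE918 minus OVE853, was -0.90 (95% interval -1.35 to -0.45, FDR = 0.0836, edgeR), which missed the threshold although the groups did not overlap. Of all filterByExpr genes, 14.1% were lower in every OVE918 library than in any OVE853 library.

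Cxcl14, a chemokine of epithelia, stood at 6.98, 21.1 and 43.4 CPM in WT, at 77.4, 72.4 and 91.7 CPM in OVE853, and at 128, 70.8, 80.2 and 127 CPM in OVE918. All transgenic libraries lay above all WT libraries, while the WT libraries themselves spread more than 6-fold. The log2 fold change was 2.09 in OVE918 (standard error 0.52, FDR = 0.0246, edgeR), which was called, and 1.75 in OVE853 (standard error 0.54, FDR = 0.0588, edgeR), which was not. The difference between the lines was 0.34 (95% interval -0.77 to 1.44, FDR = 0.697, edgeR), so that the calls do not show that the lines differ. Without WT replicate 3, the highest of WT, the log2 fold changes were 2.51 in OVE853 (FDR = 0.00888, edgeR) and 2.84 in OVE918 (FDR = 0.00284, edgeR), and without WT replicate 1 the value in OVE853 was 1.32 (FDR = 0.0293, edgeR). The call in OVE918 was lost without WT replicate 2 (FDR = 0.0709, edgeR) or OVE918 replicate 4 (FDR = 0.0558, edgeR).

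Cxcl16, a membrane-tethered chemokine that also takes up oxidized lipoproteins, stood at 3.09, 1.92 and 9.78 CPM in WT, at 2.30, 2.26 and 2.18 CPM in OVE853, and at 3.04, 1.15, 1.49 and 3.41 CPM in OVE918. WT replicate 3 was more than 2-fold above every other library, and the groups overlapped. Among the filterByExpr genes the log2 fold change was -1.12 in OVE853 (standard error 0.57, FDR = 0.201, edgeR) and -1.09 in OVE918 (standard error 0.53, FDR = 0.182, edgeR). Without WT replicate 3 these values were -0.19 and -0.15. The same library had the highest retinal neuron marker sum, and the part of other tissue in this value was not tested.

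Cx3cl1, the membrane-tethered ligand of Cx3cr1 that is released by cleavage, stood at 60.2, 56.7 and 78.9 CPM in WT, at 70.7, 89.3 and 88.7 CPM in OVE853, and at 98.6, 93.6, 83.5 and 99.7 CPM in OVE918. All OVE918 libraries lay above WT, while OVE853 overlapped with it through WT replicate 3. The log2 fold change was 0.34 in OVE853 (standard error 0.14, FDR = 0.113, edgeR) and 0.52 in OVE918 (standard error 0.13, FDR = 0.0190, edgeR), a fold change of 1.44 that lay under the minimum. Without WT replicate 3 the value in OVE853 was 0.50 (FDR = 0.0261, edgeR), also under the minimum. Its neighbour Ccl17, 25302 bases away on chromosome 8, had 3, 3 and 2 counts in WT, 6, 5 and 8 in OVE853, and 11, 9, 11 and 22 in OVE918. Ccl17, a T cell attractant, was elevated in OVE918 among the filterByExpr genes, with a log2 fold change of 2.37 (standard error 0.56, FDR = 0.0150, edgeR). It exceeded 3 counts in no WT library and 8 counts in OVE918 only, and passed the count filter through that group, so that this call is a description.

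Per exon length, Cx3cl1 led the 10 genes in WT with 19.7 ± 3.59 FPKM (SD, n = 3), ahead of Cxcl14 with 7.87 ± 6.06 and Ccl2 with 4.57 ± 1.31 FPKM. The Cx3cl1 libraries did not overlap with those of Cxcl14, whereas Cxcl14 and Ccl2 overlapped. In OVE853 the order was Ccl2 with 32.5 ± 9.36, Cxcl14 with 26.6 ± 3.31 and Cx3cl1 with 25.0 ± 3.20 FPKM (SD, n = 3), and neighbours in this order overlapped. In OVE918 it was Cxcl14 with 33.6 ± 10.1, Cx3cl1 with 28.3 ± 2.22 and Ccl2 with 22.7 ± 8.56 FPKM (SD, n = 4), again with overlap. Ccl7 was at 3.55 ± 1.33 FPKM in OVE853 and 5.33 ± 1.59 FPKM in OVE918, against 0.368 ± 0.244 FPKM in WT, and overlapped with Cxcl1 in both lines. Outside the 10 genes, the ligand Ccl27a was at mean levels of 16.5, 18.0 and 17.1 FPKM in WT, OVE853 and OVE918.

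The 10 genes and the 30 other ligands of a fixed list together gave 49.6, 51.5 and 73.8 FPKM in WT, 111, 106 and 140 FPKM in OVE853, and 126, 104, 105 and 148 FPKM in OVE918. Every transgenic library exceeded every WT library. The share of Ccl2 in this sum was 7.10% to 8.18% in WT, 24.6% to 30.8% in OVE853 and 15.6% to 23.9% in OVE918. The share of Cx3cl1 was 32.2% to 36.6% in WT and 19.1% to 27.2% in the transgenic libraries, while its own level was 17.1 to 23.8 FPKM in WT and 21.3 to 30.1 FPKM in the transgenic libraries.

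**Figure D4:**
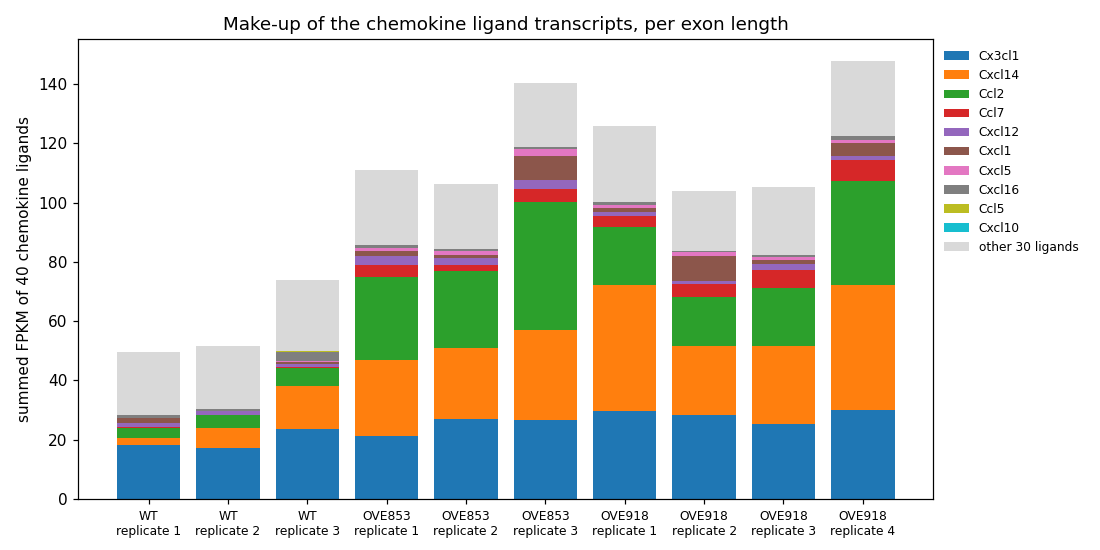
Summed FPKM of 40 chemokine ligands (vertical axis) in each of the 10 libraries, stacked by gene, with the 30 other ligands in light grey. The bars reach 49.6 to 73.8 FPKM in WT and 104 to 148 FPKM in the transgenic libraries, and the Ccl2 and Cxcl14 segments are taller in every transgenic library than in any WT library.

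Of the 30 other ligands, 5 had 0 counts in all libraries and 14 never exceeded 3 counts. With the FPKM filter Ccl25 and Ccl27a were tested, and neither was called by edgeR, DESeq2 or limma-voom or had an unadjusted p under 0.05 in a comparison. Ccl27a, a skin chemokine that has near-identical gene copies between which reads can be split, stood at 19.8 to 27.2 CPM over all libraries, and Ccl25, a thymus and gut chemokine, at 4.28 to 6.26 CPM. Of the 7 tested among the filterByExpr genes, Ccl17 was elevated in OVE918, and Pf4, platelet factor 4, was reduced in both lines. Pf4 had 14, 11 and 26 counts in WT, 0, 0 and 1 in OVE853, and 0, 0, 3 and 1 in OVE918. Pf4 exceeded 3 counts in the WT libraries alone and passed the count filter through them, so that its calls are a description.

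The receptors of these chemokines were mostly rare in the same libraries. Of 23 receptor genes, 4 had 0 counts throughout, 2 were tested with the FPKM filter, and 8 were tested among the filterByExpr genes. Ackr4, a scavenging receptor of other CC ligands, was reduced in OVE918 among the latter, with a log2 fold change of -1.14 (standard error 0.25, FDR = 0.00895, edgeR).

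Ackr3, the scavenging receptor of Cxcl12, stood at 15.1, 11.2 and 12.6 CPM in WT, at 15.6, 16.2 and 14.7 CPM in OVE853, and at 9.94, 7.67, 10.7 and 9.60 CPM in OVE918. All OVE918 libraries lay under all others, while 14.1% of the filterByExpr genes were lower in every OVE918 library than in any OVE853 library. OVE918 minus OVE853 was -0.71 on the log2 scale (standard error 0.14, FDR = 0.0430, edgeR), and OVE918 minus WT was -0.45 (standard error 0.14, FDR = 0.0454, edgeR), both under the minimum fold change. Ackr1, which binds many chemokines on endothelium, was at 21.9 CPM in WT replicate 3 and between 0.745 and 7.20 CPM in the other libraries. The following receptors are named for their pairing with the ligands, after their values were seen. Ccr2, the receptor of Ccl2 and Ccl7, reached at most 7 counts, Cxcr2, that of Cxcl1 and Cxcl5, at most 4, and Cxcr6, that of Cxcl16, at most 5. Cx3cr1, the receptor of Cx3cl1 on microglia and macrophages, stood at 3.44, 1.77 and 2.52 CPM in WT, at 5.68, 5.23 and 4.94 CPM in OVE853, and at 4.03, 1.45, 3.90 and 3.74 CPM in OVE918. Cx3cr1 in OVE853 lay above WT in all libraries, as did 21.0% of the filterByExpr genes. It did not pass the test among the filterByExpr genes (log2 fold change 1.04, standard error 0.36, FDR = 0.0788, edgeR).

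Adam10 and Adam17 encode the proteases that release Cx3cl1 and Cxcl16 from the membrane. Adam10 stood at 104, 84.2 and 69.4 CPM in WT, at 115, 131 and 114 CPM in OVE853, and at 112, 126, 128 and 107 CPM in OVE918. Its transgenic libraries all lay above WT, with log2 fold changes of 0.48 and 0.46 that lay under the minimum. Of all genes tested with the FPKM filter, 23.4% were likewise higher in every OVE853 library and 12.3% in every OVE918 library. Of the 6 shedding and cleavage enzymes tested, 1 was called, Mmp2, a gelatinase that also cleaves chemokines such as Ccl7 and Cxcl12. Mmp2 was elevated in OVE853, with a log2 fold change of 1.40 (standard error 0.33, FDR = 0.0179, edgeR), and in OVE918, with 1.86 (standard error 0.32, FDR = 0.00244, edgeR). Among all genes tested with the FPKM filter, 2.51% were called elevated in OVE853 and 2.58% in OVE918.

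Of 13 NF-κB pathway genes tested, 3 were called elevated in OVE853 and 2 in OVE918, beside 2.51% and 2.58% of all genes tested with the FPKM filter. Bcl3 and Nfkb2 reached the FPKM minimum in the 7 transgenic libraries only, so that these counts and the Bcl3 calls are a description. Bcl3, an atypical IκB protein that acts in the nucleus, stood at 0.760, 0.616 and 0.456 CPM in WT, at 23.7, 18.1 and 23.7 CPM in OVE853, and at 14.1, 19.8, 17.9 and 21.7 CPM in OVE918. The groups lay far apart, with log2 fold changes of 5.17 in OVE853 (standard error 0.24, FDR = 7.08e-07, edgeR) and 4.92 in OVE918 (standard error 0.23, FDR = 1.15e-06, edgeR). Nfkbie, an inhibitor of NF-κB, was elevated by 1.58 and 1.23 on the log2 scale, and Nfkbia, the IκBα gene, by 1.17 in OVE853. In OVE918 Nfkbia was at 0.99, just under the minimum fold change. Ikbkb and Rela, which encode a kinase and the p65 subunit, were not called in either line.

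Of 6 cytokines and receptors known to induce chemokines that were tested, Osmr, the oncostatin M receptor, was elevated in OVE853 (log2 fold change 2.21, standard error 0.27, FDR = 4.85e-04, edgeR) and in OVE918 (2.03, standard error 0.26, FDR = 3.69e-04, edgeR). Osmr stood at 0.993 to 2.45 FPKM in WT, 7.08 to 8.19 FPKM in OVE853 and 5.41 to 7.91 FPKM in OVE918. It reached the FPKM minimum in 8 libraries and passed the filter through the transgenic ones, so that its calls are a description. Tnfrsf1a, a receptor of tumor necrosis factor, was reduced in OVE918 (log2 fold change -1.11, standard error 0.22, FDR = 0.00621, edgeR). Of 5 interferon response genes tested, Usp18, an inhibitor of interferon signaling, was reduced in OVE853 (-1.06, standard error 0.32, FDR = 0.0472, edgeR) and in OVE918 (-1.40, standard error 0.30, FDR = 0.00778, edgeR). Among all genes tested with the FPKM filter, 2.51% were called elevated and 1.91% reduced in OVE853. In OVE918 these shares were 2.58% and 3.01%. Of 6 regulators of mRNA decay tested with the FPKM filter, 0 were called by edgeR, DESeq2 or limma-voom in either line, and at an unadjusted p under 0.05 there was 1 in OVE853 and 0 in OVE918. Zc3h12a, which encodes the RNase regnase-1, was called elevated among the filterByExpr genes in both lines, by 1.78 and 1.60 on the log2 scale.

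Macrophage markers differed in part between the groups as well. The sum of 13 macrophage markers was 39.4, 23.6 and 59.0 CPM in WT, 80.3, 48.4 and 70.8 CPM in OVE853, and 77.0, 35.9, 56.2 and 96.8 CPM in OVE918, and the groups overlapped. All 13 were tested among the filterByExpr genes and 11 had a log2 fold change above 0 in each line, with medians of 0.99 in OVE853 and 1.01 in OVE918. By edgeR 1 was called in OVE853, the reduced Mrc1, and 3 in OVE918, the elevated Cd68 and C1qa and the reduced Mrc1. Of all filterByExpr genes, edgeR called 3.17% elevated in OVE853 and 3.45% in OVE918. DESeq2 called 5 of the 13 in OVE853 and 6 in OVE918, whereas limma-voom called 10 and 6. In each line 7 had an unadjusted p under 0.05 by edgeR. The shares of all genes for these other counts are not reported here. Mrc1, the mannose receptor of resident macrophages, was reduced in both lines, with log2 fold changes of -4.16 and -3.57. The 8 neutrophil markers summed to at most 2.08 CPM, with Ly6g at 1 count at most. The 7 T cell markers summed to 2.38 to 2.91 CPM in WT and 5.65 to 8.40 CPM in the transgenic libraries, while Cd3e had 2 counts in OVE918 replicate 3 and 0 in the other libraries. Among the filterByExpr genes Cd3g was called elevated in both lines, from 0.0351 to 0.539 CPM in WT to 1.24 to 3.09 CPM in the transgenic libraries, and Lck in OVE853, from 2.28 to 2.42 CPM to 4.46 to 5.29 CPM. Cd3g passed the count filter through the transgenic libraries, so that its calls are a description. The part of leukocyte RNA in the chemokine values was not tested.

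**Figure D5:**
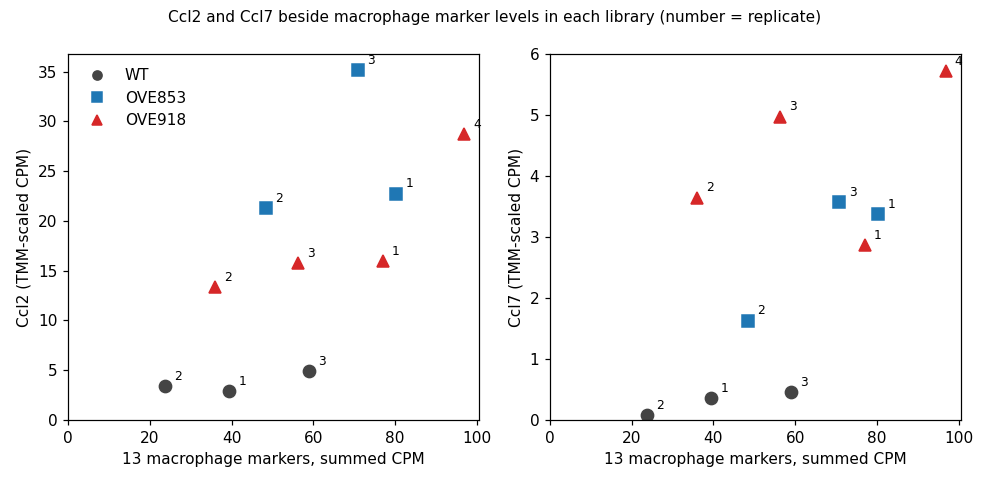
Ccl2 (left) and Ccl7 (right) in TMM-scaled CPM (vertical axes) against the summed CPM of 13 macrophage markers (horizontal axes) in each of the 10 libraries, with circles for WT, squares for OVE853, triangles for OVE918 and the replicate number beside each mark. The groups overlap along the marker axis, from 23.6 to 59.0 CPM in WT and from 35.9 to 96.8 CPM in the transgenic libraries, and do not overlap with WT along either chemokine axis.

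As a description of likeness across the 10 libraries, which share their group structure, the 3 tested genes closest to each member by Pearson correlation of log2 CPM are given without a test. Closest to Ccl2 were Clu (r = 0.987), Tcirg1 (0.983) and Pgs1 (0.976). Closest to Ccl7 were Spp1 (0.985), Serpina3i (0.982) and Chst8 (0.981). Closest to Cxcl14 were Cldn10 (0.980), Gm5148 (0.958) and Rtn4rl2 (0.949), and closest to Cx3cl1 were Hs3st5 (0.938), Fscn1 (0.919) and Lmo1 (0.897).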

How the data were processed

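Paired reads of 150 bases were trimmed, aligned to GRCm39 and counted per gene in reverse-stranded mode by the authors, with cutadapt 5.2, STAR 2.7.11b and featureCounts 2.0.8 per the submitters' processing notes, and the deposited values are raw counts. Counts were analysed here in R 4.3.3 with edgeR 4.0.16 (TMM, robust quasi-likelihood fit of all 3 groups, 3 contrasts), limma 3.58.1 and DESeq2 1.42.0. Exon lengths for FPKM were taken from the Primary transcripts of GENCODE vM39, by gene symbol or, for 22 genes, by a RefSeq synonym. No match was found for 7489 genes, which had no length. A matched gene without a Primary transcript had none either. Log2 CPM had a prior count of 2. The 10 genes and all lists were chosen with earlier results of these data known. All 10 were named. From other lists, genes called with the FPKM filter (at most 8) and the 2 of highest mean CPM were named, and ligands and receptors also where called among filterByExpr genes. Named genes outside this rule (Zfp36, Zc3h12a, Cxcl2, macrophage and T cell markers and several receptors) were chosen after their values were seen. Steps were tested on simulated data. Counts limit the precision of each value, and intervals and floors cover counting error only where so stated. Results for some genes of the lists are not reported here.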

Additional observations from a re-analysis of the deposited data

How the results depend on the processing

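Over 21 alternatives each, Ccl2 and Ccl7 kept their direction and their call in both lines (highest FDR 0.0133, edgeR, DESeq2 or limma-voom). With voom, Ccl7 moved from 3.25 to 4.44 in OVE853 and from 3.83 to 4.92 in OVE918 (log2), and without WT replicate 3 it was 3.75 and 4.33. Called members in OVE853 numbered 2, but 4 among filterByExpr genes and 4 without a filter, because more genes were tested. Leaving out 1 library gave 2 to 3 in each line and 0 to 0 between them. Over all genes, 491 calls in OVE853 became 1244 with filterByExpr, 1061 without a filter and 1751 without a minimum fold change, and 334 to 664 when 1 library was left out. The 620 calls in OVE918 became 1587, 1548 and 2110, and 522 to 728. The 54 calls between the lines became 108 with library totals, 97 with only the groups compared, 106 with DESeq2, 112 with voom and 146 without a minimum fold change, and 6 (without OVE853 replicate 1) to 93 (without WT replicate 3). The labels give groups the same replicate numbers. Correlations of deviations ran from -0.30 to 0.08 for same-numbered libraries and from -0.40 to 0.39 for the others. With so few libraries in a group, this cannot show whether the numbers pair the samples, and no pairing was used in the main fit. With the replicate block there were 28 calls between the lines and Cxcl14 in OVE918 had an FDR of 0.102 (edgeR). Cxcl14 was also uncalled there without a filter (0.0650) and with only the groups compared (0.0595), and was called in OVE853 with DESeq2 (0.0156), voom (0.00321) and without robust estimation (0.0374). Cxcl5 in OVE853 was uncalled with only the groups compared (0.0656). Between the lines, Cxcl1 at 0.17 reversed with library totals (-0.014) and voom (-0.28), and ran from -0.56 to 1.62 when 1 library was left out. Cxcl16 at 0.02 reversed with library totals (-0.19), voom (-0.28) and the replicate block (-0.32), and ran from -0.23 to 0.25. Cx3cl1 at 0.18 reversed with library totals (-0.0042). Library totals moved the median of all genes by -0.18 between the lines, under which Cxcl12 was called (-1.09, FDR = 0.0350, edgeR) and the share of elevated calls fell from 14.8% to 5.56%. The cause of the other changes was not tested. Genes under about 10 counts, such as Ccl5 and Cxcl10, are limited by depth.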
